A study of Mus musculus with 16 samples.

Results

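The mitosis and G2/M genes examined here were 50 named genes of mitotic kinases, cyclins, kinesins, kinetochore, condensin and cytokinesis proteins with their regulators, of 20490 genes in the expression table. They were chosen by name, and all 50 had a row. Messenger RNA was sequenced in RAW264.7 cells, a mouse macrophage line that turns into bone-resorbing osteoclasts when it meets RANKL, the cytokine that switches on osteoclast formation through its receptor RANK. The design asks what extracellular vesicles (EV), small membrane particles shed by PC3M cells, do to that conversion; PC3M is a metastatic human prostate cancer line. After 12 h of attachment the cells received EV at 30 µg/mL with RANKL at 10 ng/mL (EV+RANKL), RANKL alone, EV alone, or phosphate-buffered saline (PBS) as the control, for 72 h or 48 h. The 8 groups had 2 libraries each (n = 2), from a single cell line, and no label says whether the 2 came from separate dishes of cells. The p-values therefore measure only the spread between these libraries, which may be technical.

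Cells that divide build up a set of proteins in G2 and mitosis and destroy many of them at mitotic exit, so transcripts of this set mark cycling cells. Cyclin-dependent kinase 1 with cyclins A and B drives entry into mitosis, the spindle checkpoint holds sister chromatids together until every kinetochore is attached, and the anaphase-promoting complex then marks cyclin B and securin for destruction. Many of these genes are transcribed late in the cycle by B-MYB (Mybl2) on the MuvB complex and by FOXM1. In resting cells MuvB joins pocket proteins and E2F and holds the same promoters silent. MuvB contacts the cell cycle genes homology region (CHR), and the factor NF-Y binds CCAAT boxes nearby. Osteoclast precursors are known to divide before they leave the cycle and fuse into cells with many nuclei.

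Promoters of 4 members, chosen by name, show these elements and are printed as examples. The windows run from 250 bases before to 50 bases after the start of the gene, 300 bases in all, 5′ to 3′ on the gene's strand, from RefSeq on GRCm38.p6. Capitals mark the CHR letters TTTGAA, its variant TTTAAA and the CCAAT box, each searched on both strands, so that TTCAAA and ATTGG are matches on the other strand. Cyclin B1 (Ccnb1) lies on the minus strand at chr13:100786437-100786736, the anaphase activator Cdc20 on the minus strand at chr4:118437294-118437593, polo-like kinase 1 (Plk1) on the plus strand at chr7:122159185-122159484, and the ubiquitin-conjugating enzyme Ube2c on the plus strand at chr2:164769679-164769978.
Ccnb1: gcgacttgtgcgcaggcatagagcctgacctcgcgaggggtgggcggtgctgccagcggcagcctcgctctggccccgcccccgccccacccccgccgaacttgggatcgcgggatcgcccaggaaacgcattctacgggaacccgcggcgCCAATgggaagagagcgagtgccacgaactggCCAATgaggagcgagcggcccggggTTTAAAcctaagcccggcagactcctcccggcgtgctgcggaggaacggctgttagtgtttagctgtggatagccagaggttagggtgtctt
Cdc20: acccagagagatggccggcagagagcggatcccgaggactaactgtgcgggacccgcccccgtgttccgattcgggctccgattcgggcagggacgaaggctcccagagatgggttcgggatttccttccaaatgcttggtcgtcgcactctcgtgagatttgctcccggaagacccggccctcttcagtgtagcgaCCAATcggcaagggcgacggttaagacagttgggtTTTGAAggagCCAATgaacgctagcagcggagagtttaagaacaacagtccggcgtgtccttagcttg
Plk1: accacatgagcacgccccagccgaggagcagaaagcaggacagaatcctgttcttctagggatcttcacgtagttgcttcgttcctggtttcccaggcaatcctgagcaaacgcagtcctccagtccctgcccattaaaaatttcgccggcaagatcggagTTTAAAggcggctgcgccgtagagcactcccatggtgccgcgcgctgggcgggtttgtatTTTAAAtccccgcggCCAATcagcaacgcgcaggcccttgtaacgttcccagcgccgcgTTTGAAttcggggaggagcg
Ube2c: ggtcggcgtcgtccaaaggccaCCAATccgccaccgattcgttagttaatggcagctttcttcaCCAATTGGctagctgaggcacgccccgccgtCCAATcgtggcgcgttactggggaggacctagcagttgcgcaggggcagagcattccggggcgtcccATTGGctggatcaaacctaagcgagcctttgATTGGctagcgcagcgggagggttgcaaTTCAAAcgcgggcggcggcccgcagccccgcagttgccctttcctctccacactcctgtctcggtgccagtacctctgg

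Cdc20 held a CHR from -18 to -13 relative to the start, between CCAAT boxes at -53 to -49 and -8 to -4. Ccnb1 held no TTTGAA in this window but the variant TTTAAA from -42 to -37, with CCAAT boxes at -99 to -95 and -67 to -63. Plk1 held a CHR after the start, from 30 to 35, and the variant at -89 to -84 and -29 to -24. Ube2c held a CHR on the other strand from -29 to -24 and 6 CCAAT boxes, 3 on each strand, of which 1 pair overlaps. The search for the variant was added after the matches of Ccnb1 had been seen.

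Of the 50 members, 42 had a promoter in the RefSeq table, and 31 of these (73.8%) held a CHR. The same letters were in 11.6% of the promoters of 7756 other tested genes and in 17.9% of all 32851 promoters of the table. The variant was in 21.4% of the members' promoters, in 8.46% of the other tested genes and in 13.2% of all promoters. A CCAAT box was in 73.8% of the members, against 39.2% of the other tested genes and 37.4% of all promoters. A CHR together with a CCAAT box was in 27 members (64.3%), against 4.77% of the other tested genes and 6.95% of all promoters. A match is a description of letters and does not show binding. The members were named for their role in mitosis and not by these letters.

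**Figure D1:**
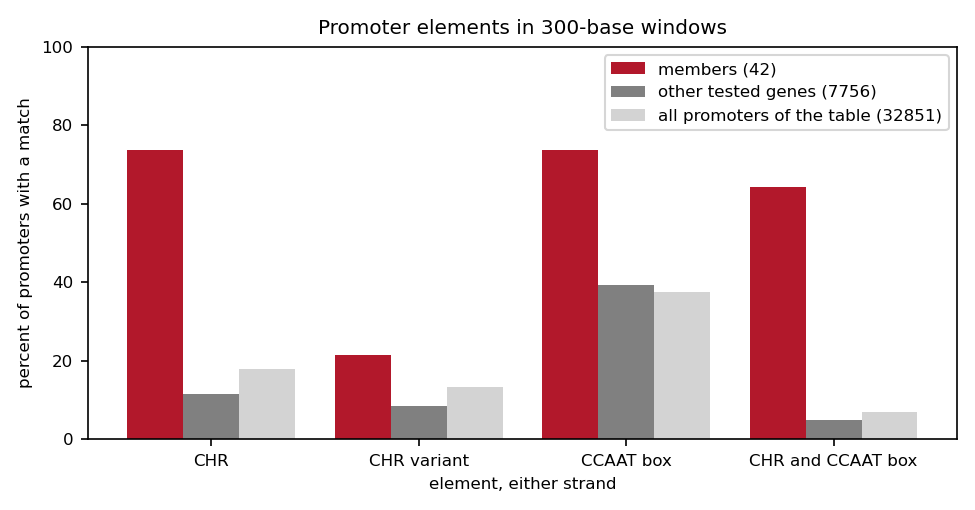
Percent of promoters (vertical axis) with a CHR, its variant, a CCAAT box, or both a CHR and a CCAAT box (horizontal axis) in a window of 300 bases, for 42 members (red), 7756 other tested genes (dark grey) and all 32851 promoters of the table (light grey). A CHR with a CCAAT box stood in 64.3% of the members' promoters and in 4.77% of the other tested genes.

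Values are RPKM, reads scaled to gene length and library size, recovered from a deposited log2(RPKM + 1) scale that was found from the values. The depth worked out from low values of 2196 single-exon genes was 18400000 to 20000000 reads per library. All 8 macrophage markers passed the filter. Their summed level was 2538 to 3073 RPKM in EV+RANKL, 3019 to 3517 in RANKL, 6384 to 6639 in EV and 6038 to 6858 in PBS at 72 h, and 2516 to 2910 in EV+RANKL, 3317 to 3381 in RANKL, 6056 to 7412 in EV and 7593 to 8170 in PBS at 48 h. Among them Lyz2, the macrophage lysozyme gene, was at 834 RPKM with EV+RANKL and 4472 with PBS at 72 h (-2.43 ± 0.20, limma adjusted p = 3.48e-06). In that comparison 19.9% of all tested genes rose and 22.1% fell. Of the 8 macrophage markers 3 rose and 1, Lyz2, fell in it, with a median log2 difference of 0.01. There were 0 rises without EV+RANKL_72h replicate 1 and 1 without PBS_72h replicate 2, while the fall of Lyz2 held without any 1 library. Over time with EV+RANKL 17.4% of all tested genes rose and 21.5% fell. Of the 8 macrophage markers 5 rose and 0 fell there, with a median of 0.51. There were 2 rises without EV+RANKL_48h replicate 2 or EV+RANKL_72h replicate 1, and 3 without EV+RANKL_72h replicate 2. Of 7 osteoclast markers 6 passed the filter, and their sum was 960 to 1455 RPKM in EV+RANKL, 361 to 717 in RANKL, 65.8 to 106 in EV and 6.85 to 8.49 in PBS at 72 h. At 48 h it was 348 to 483 RPKM in EV+RANKL, 178 to 203 in RANKL, 33.9 to 45.4 in EV and 6.23 to 6.48 in PBS. Calcr, the calcitonin receptor of mature osteoclasts, stayed at 0 to 0.133 RPKM. The part of both marker lists in the results on the members was not tested. Epithelial and stromal markers did not pass the filter, with Met highest at 0.252 and Runx2 at 0.867 RPKM. In 777 of 10365 tested genes, 5 libraries of 72 h (both EV+RANKL, RANKL replicate 2 and both EV) lay below all 11 others, and in 782 genes above. The first set held 8 members (Ccna2, Plk1, Mad2l1, Tpx2, Mki67, Smc2, Incenp and Foxm1) and the second 0. The share of all RPKM held by ribosomal protein genes was 11% to 11.5% in the 5 and 8.21% to 9.81% in the 11. Of the 5, RANKL replicate 2 received no vesicles. Because the 5 include all vesicle libraries of 72 h, this division cannot be told apart from the vesicles' effect at 72 h. Nor can it be told apart from the change between 48 h and 72 h with EV+RANKL or with EV. The sources used here do not say how reads were assigned to genes or whether strand was kept, so reads of a gene and of an overlapping or near-identical copy cannot be told apart.

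All 50 members passed the filter of 1 RPKM in at least 2 libraries. Their summed level, which cannot tell fewer dividing cells from less of this RNA per cell, was lowest at 72 h with EV+RANKL and highest at 48 h with RANKL. At 72 h the sum was 1019 and 1272 RPKM in EV+RANKL, 1532 and 1420 in RANKL, 1298 and 1577 in EV, and 1552 and 1666 in PBS. At 48 h it was 1847 and 1871 RPKM in EV+RANKL, 1959 and 1978 in RANKL, 1771 and 1790 in EV, and 1669 and 1670 in PBS. The EV+RANKL libraries of 72 h lay below all 14 others, and the RANKL libraries of 48 h above all others. In the order of the sums, EV at 72 h overlapped both RANKL and PBS of 72 h.

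The low end of this pattern was shared by nearly all members, and the high end by fewer. EV+RANKL at 72 h had the lowest group mean for 46 of 50 members. RANKL at 48 h had the highest for 34, EV at 72 h for 6 and EV+RANKL at 48 h for 6. EV+RANKL_72h replicate 1 was the lowest single library for 47 members, the exceptions being Mybl2, Cdc25b and Cenpa. The same counts over all tested genes were not made. Pearson's r of a member with the members' mean profile over the 16 libraries reached 0.977 for the condensin subunit Ncaph. It was -0.07 for the phosphatase Cdc25b, 0.163 for the centromeric histone Cenpa, 0.622 for the kinase Aurkb and 0.646 for the spindle protein Nusap1, the 4 least alike.

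**Figure D2:**
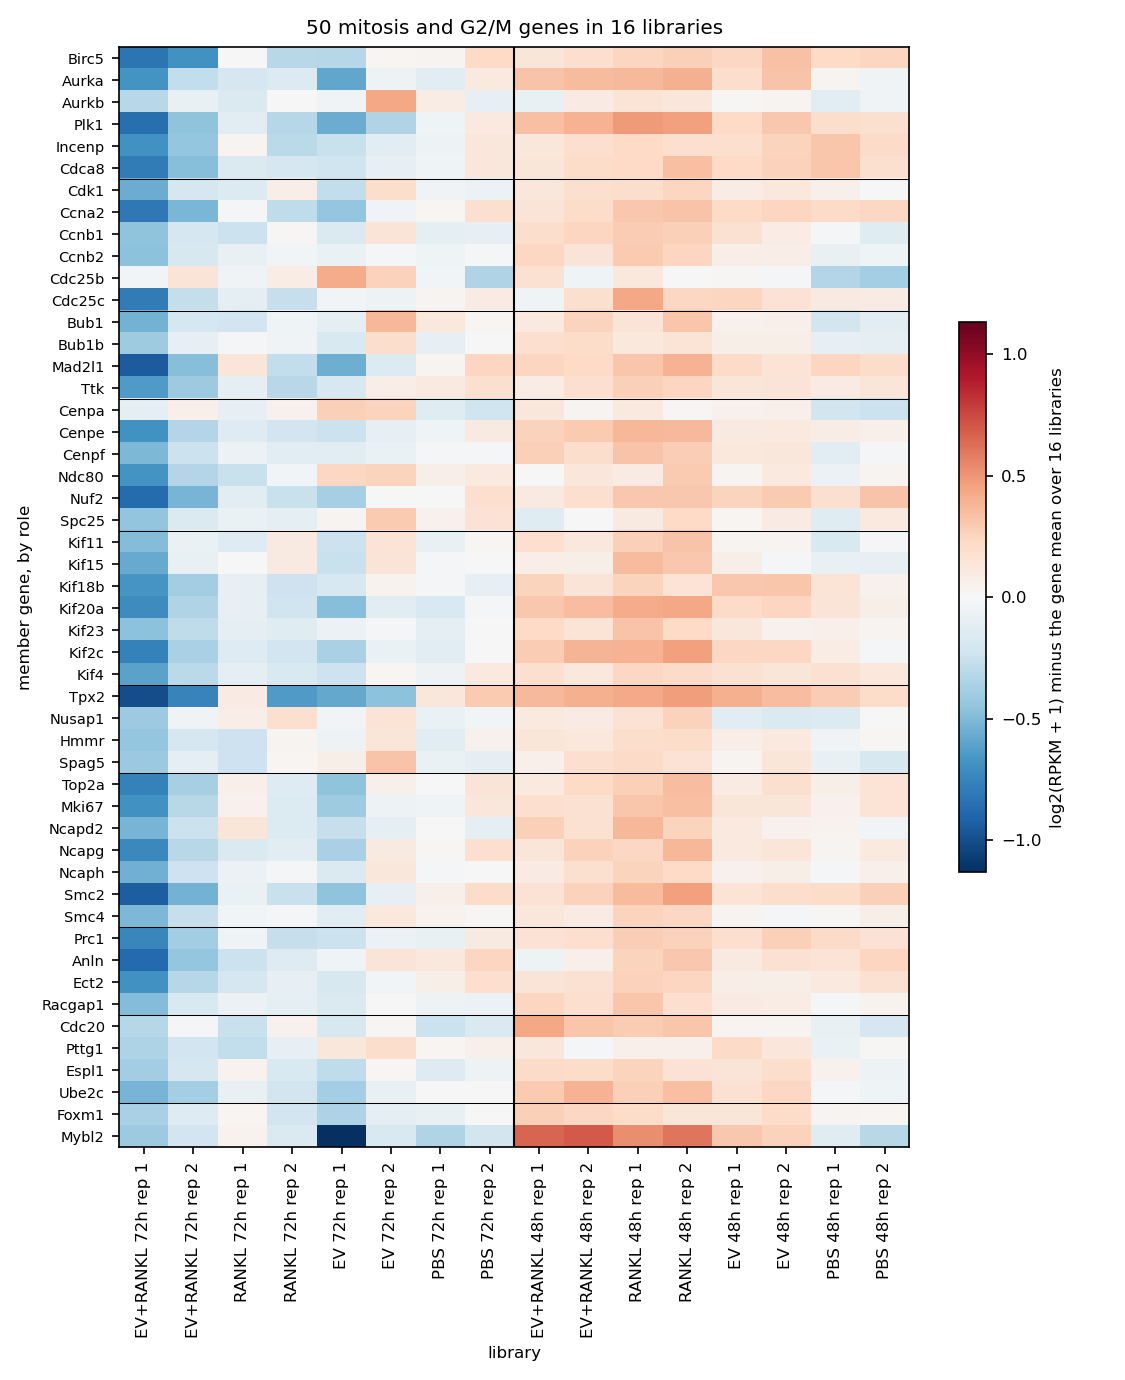
Each row is 1 of the 50 members, grouped by role with lines between roles, and each column 1 of 16 libraries, with 72 h left of 48 h and EV+RANKL, RANKL, EV and PBS from left to right. Colour gives log2(RPKM + 1) minus the gene's mean over the 16 libraries, from blue (below) to red (above). EV+RANKL_72h replicate 1 is the lowest library for 47 members, and the rows of Cdc25b and Cenpa differ from the rest.

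Between 48 h and 72 h, 46 of 50 members fell with EV+RANKL and 0 rose, at a Benjamini-Hochberg adjusted p under 0.05 in limma's test. Over all tested genes 38.9% changed in this comparison and 21.5% fell. Both EV+RANKL libraries of 72 h, and neither of 48 h, belong to the 5 libraries set apart above. The members' median log2 change of RPKM + 1 was -0.61, against -0.02 for all tested genes, and all 50 changes were below 0. An unadjusted p under 0.05 was reached by 46 members, all lower, and by 5021 of 10365 tested genes, 2740 of them lower. Leaving out 1 library gave 27 to 46 falling members, the fewest without EV+RANKL_72h replicate 1, and 27 members passed in every such fit.

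Among the kinases and the chromosomal passenger complex, 5 of 6 members fell. Plk1, which drives mitotic entry and spindle assembly, was at 25.2 and 33.6 RPKM at 72 h with EV+RANKL, against 58.9 and 61.1 at 48 h. That is a log2 change of -1.02 ± 0.13 (SE), limma adjusted p = 0.00102. Birc5, the survivin subunit of the passenger complex, was at 17.9 and 20.0 RPKM at 72 h and 36 and 37.5 at 48 h, a change of -0.92 ± 0.13 (adjusted p = 0.00114 in limma). Aurora A (Aurka), the kinase of spindle poles, was at 31.1 and 41.4 RPKM at 72 h and 63.3 and 65.1 at 48 h. The passenger subunit Cdca8 fell by 0.81. Aurora B (Aurkb), the kinase of the same complex, had a change of -0.20 and did not pass.

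Of the cyclins, CDK1 and the CDC25 phosphatases, 5 of 6 fell. Cyclin A2 (Ccna2) was at 37.5 and 46.4 RPKM at 72 h with EV+RANKL and 74.0 and 77.3 at 48 h. Cdk1 itself was at 19.0 and 24.7 RPKM at 72 h and 31.2 and 32.3 at 48 h. Ccnb1, the main cyclin partner of CDK1 in mitosis, was at 17.6 and 21.4 RPKM at 72 h and 28.4 and 29.3 at 48 h. In all 3 genes the libraries of the times stood apart. Their changes were -0.84 ± 0.14 for Ccna2, -0.53 ± 0.15 for Cdk1 and -0.55 ± 0.12 for Ccnb1. Without EV+RANKL_72h replicate 1 the calls of Ccnb1 and Cdk1 were lost, and that of Cdk1 also without EV+RANKL_48h replicate 2. The call of Cdc25c did not hold in every fit without 1 library. Cdc25b, which removes inhibitory phosphates from CDK1, was at 21.9 and 24.9 RPKM at 72 h and 25.4 and 21.7 at 48 h, so the times overlapped.

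All 4 spindle checkpoint members fell (median -0.61), with Mad2l1, which inhibits CDC20 at unattached kinetochores, at 22.4 and 31.2 RPKM at 72 h against 52.2 and 51.5 at 48 h. All 7 kinesins fell, with a median change of -0.61, among them the depolymerase Kif18b (-0.73 ± 0.11). The microtubule depolymerase Kif2c was at 10.9 and 14.7 RPKM at 72 h and 23.7 and 25.5 at 48 h. Of 6 centromere and kinetochore members 4 fell, among them the plus-end motor Cenpe (-0.79 ± 0.11). The histone variant Cenpa (-0.10) and Spc25 of the NDC80 complex (-0.23) did not pass. The calls of Bub1, Bub1b, Kif11, Kif15 and Ndc80 did not hold in every fit without 1 library.

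Tpx2, which activates Aurora A and seeds spindle microtubules, had the largest fall of any member. It was at 38.8 and 46.4 RPKM at 72 h with EV+RANKL and 102 and 105 at 48 h, a log2 change of -1.27 ± 0.18 (limma adjusted p = 0.00114). The other 3 spindle proteins also fell. The call of the spindle protein Hmmr was lost without EV+RANKL_72h replicate 1 or EV+RANKL_48h replicate 2, while Nusap1 (-0.33, adjusted p = 0.0406 in limma) and Spag5 did not pass without EV+RANKL_72h replicate 1 or without either EV+RANKL library of 48 h.

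All 7 condensin and chromosome structure members fell, with a median change of -0.68. Mki67, the proliferation antigen Ki-67 that coats mitotic chromosomes, was at 91.7 and 120 RPKM at 72 h with EV+RANKL and 169 and 168 at 48 h (-0.68 ± 0.14). Topoisomerase II alpha (Top2a), which untangles sister DNA, was at 36.1 and 47.6 RPKM at 72 h and 67.0 and 72.8 at 48 h. The calls of Ncapg and Ncaph did not hold in every fit without 1 library. All 4 cytokinesis members fell, with the contractile ring scaffold Anln changing by -0.66 ± 0.13.

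All 4 members that act at anaphase and exit fell as well. Ube2c, which works with the anaphase-promoting complex, was at 38.7 and 42.6 RPKM at 72 h with EV+RANKL and 69.0 and 74.1 at 48 h (-0.80 ± 0.10, limma adjusted p = 0.00102). Cdc20 was at 29.9 and 37.0 RPKM at 72 h and 51.2 and 47.0 at 48 h. Both transcription factors fell, Mybl2 with 23.8 and 27.4 RPKM at 72 h and 51.2 and 52.3 at 48 h. Foxm1 was at 25.4 and 29.8 RPKM at 72 h and 40.0 and 39.1 at 48 h. The calls of Cdc20, Mybl2, Foxm1 and Top2a were lost without EV+RANKL_72h replicate 1. Those of Pttg1 and Espl1 did not hold in every fit without 1 library.

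**Figure D3:**
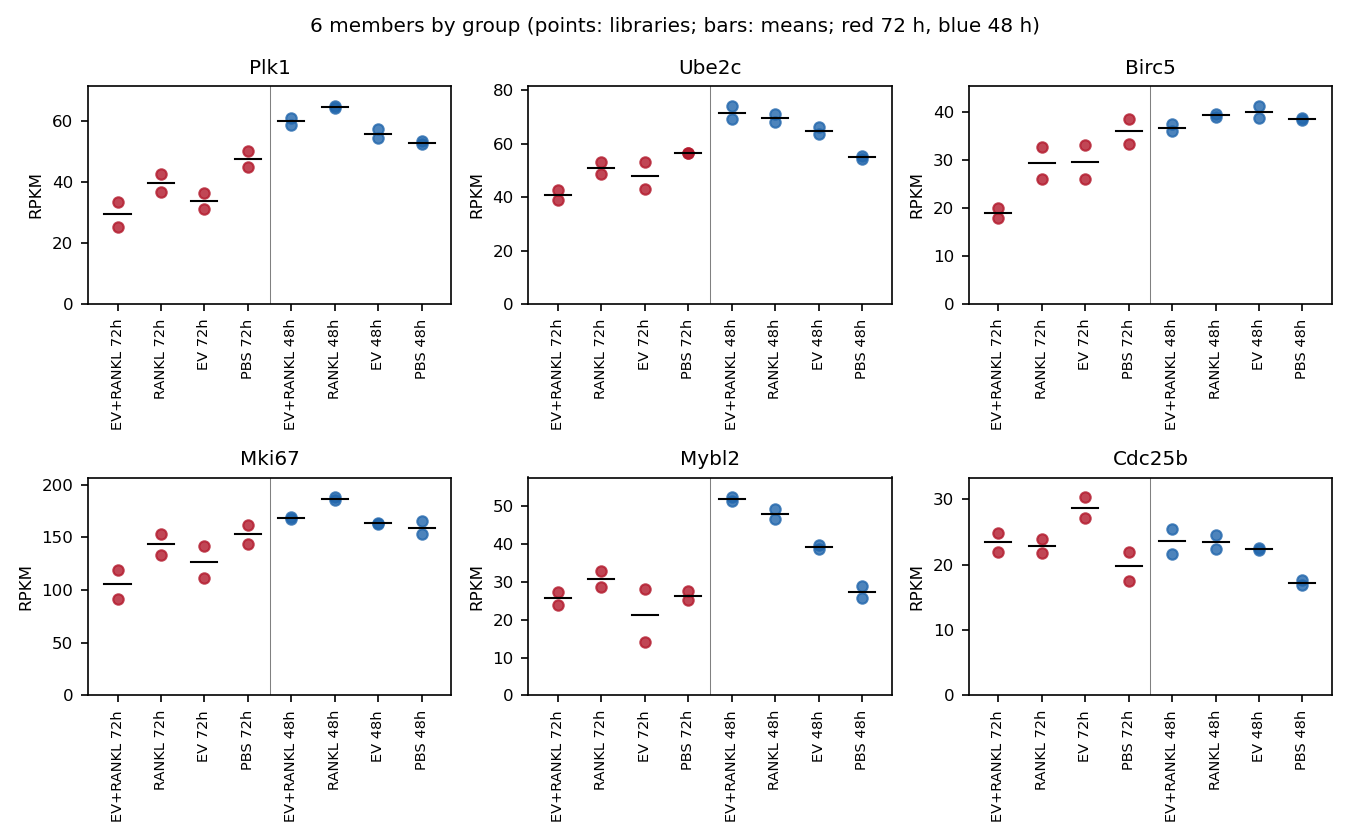
RPKM (vertical axes, from 0) of Plk1, Ube2c, Birc5, Mki67, Mybl2 and Cdc25b in the 8 groups, with 72 h in red left of 48 h in blue; points are libraries and bars are means of 2. Plk1 lies at 25.2 and 33.6 RPKM with EV+RANKL at 72 h and above 50 in all libraries of 48 h, while Cdc25b shows no such fall.

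In the other arms fewer members passed the adjusted threshold over time, which depends on how many genes change in a comparison. Whether the change over time differed between EV+RANKL and RANKL or EV was not tested. With RANKL alone 14 members fell and 0 rose between 48 h and 72 h, where 6.03% of all tested genes changed and 2.58% fell. The median change of the members was -0.38, and all 50 changes were below 0. An unadjusted p under 0.05 was reached by 41 members, all lower, and by 2957 of 10365 tested genes, 1586 of them lower. Plk1 was at 42.5 and 36.7 RPKM at 72 h with RANKL and 65.0 and 64.4 at 48 h (-0.70 ± 0.13, adjusted p = 0.0154 in limma). Cenpe (-0.55), Kif2c (-0.61), Kif23 (-0.39), Kif20a (-0.59), Ttk (-0.47), Ube2c (-0.45), Cenpf (-0.39) and Tpx2 (-0.72) also fell. The RANKL libraries of 72 h differed in Tpx2, with 84.2 RPKM in replicate 1 and 50.2 in replicate 2, against 106 and 110 at 48 h. The calls rest on single libraries: without RANKL_48h replicate 1, RANKL_48h replicate 2 or RANKL_72h replicate 2 there were 0, and without RANKL_72h replicate 1 there were 21.

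With EV alone 17 members fell and 1 rose between the times, where 32.3% of all tested genes changed (17.4% higher and 14.9% lower). The members' median change was -0.23. Plk1 was at 31.0 and 36.3 RPKM at 72 h with EV and 54.4 and 57.4 at 48 h (-0.72 ± 0.13, limma adjusted p = 0.00371). Tpx2 (-0.90), Mybl2 (-0.94), Ube2c (-0.43), Kif20a (-0.54), Cdca8 (-0.40), Aurka (-0.58) and Kif2c (-0.46) fell too. Cdc25b rose, with 30.3 and 27.1 RPKM at 72 h and 22.6 and 22.2 at 48 h (0.34 ± 0.12, adjusted p = 0.0439 in limma). Without EV_48h replicate 1 there were 4 calls, without EV_48h replicate 2 or EV_72h replicate 1 there were 3, and without EV_72h replicate 2 there were 26. Plk1, Tpx2 and Mybl2 passed in each of these fits. Centring each library on its median turned the split over all genes from 1803 higher and 1544 lower into 1563 higher and 2118 lower.

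With PBS 0 members changed between 48 h and 72 h by limma's test, 0 had an unadjusted p under 0.05, and 0.646% of all tested genes changed. Of all 10365 tested genes 1169 had an unadjusted p under 0.05. The median change of the members was -0.03. Plk1 was at 44.9 and 50.1 RPKM at 72 h with PBS and 53.3 and 52.6 at 48 h, and Mki67 at 144 and 162 at 72 h and 153 and 165 at 48 h. The largest changes were -0.23 for the passenger subunit Incenp and 0.23 for the checkpoint kinase Bub1.

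The remaining levels of the genes followed in every library show where the arms differ. Ccna2 was at 66.0 and 54.6 RPKM in RANKL, 49.0 and 64.7 in EV and 67.9 and 75.8 in PBS at 72 h, with PBS highest. At 48 h Ccna2 was at 82.8 and 83.5 RPKM in RANKL, 78.1 and 79.0 in EV and 77.7 and 78.4 in PBS. Birc5 was at 26.0 and 33.1 RPKM in EV at 72 h, and at 48 h it was at 39.0 and 39.6 in RANKL, 38.8 and 41.3 in EV and 38.4 and 38.8 in PBS. All Birc5 libraries of 48 h, with EV+RANKL, lay between 36 and 41.3 RPKM. Aurka was at 44.1 and 45.1 RPKM in RANKL, 33.1 and 48.4 in EV and 46.2 and 54.6 in PBS at 72 h, and at 65.1 and 66.9 in RANKL, 58.1 and 63.1 in EV and 51.4 and 49.0 in PBS at 48 h. Ube2c was at 53 and 48.6 RPKM in RANKL, 42.9 and 53.1 in EV and 56.4 and 56.5 in PBS at 72 h, and at 68.0 and 71.2 in RANKL, 63.5 and 66.2 in EV and 55.5 and 54.4 in PBS at 48 h. The PBS libraries of 72 h reached the levels of PBS at 48 h in Ube2c, while in Aurka only replicate 2 did.

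Cdk1 was at 25.4 and 29.9 RPKM in RANKL, 23.3 and 32.7 in EV and 27.7 and 27.1 in PBS at 72 h, and at 32.7 and 33.8 in RANKL, 30.1 and 31.0 in EV and 29.7 and 28.5 in PBS at 48 h. Ccnb1 was at 20.5 and 24.8 RPKM in RANKL and 21.8 and 27.2 in EV at 72 h, and at 30.2 and 29.8 in RANKL, 27.7 and 26.1 in EV and 24.1 and 22.3 in PBS at 48 h. The RANKL, EV and PBS libraries of 72 h overlapped in both genes. Top2a was at 64.7 and 55.9 RPKM in RANKL and 45.0 and 64.4 in EV at 72 h, and at 74.8 and 79.3 in RANKL, 66.3 and 70.6 in EV and 64.7 and 69.2 in PBS at 48 h. Mki67 was at 154 and 133 RPKM in RANKL at 72 h and 163 and 164 in EV at 48 h. The 2 libraries of RANKL at 72 h thus differed in Top2a and Mki67, with replicate 1 higher.

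Foxm1 was at 33.6 and 28.3 RPKM in RANKL and 25.7 and 30.8 in EV at 72 h, and at 38.3 and 36.4 in RANKL, 36.4 and 38.3 in EV and 33.7 and 33.5 in PBS at 48 h. Mybl2 was at 32.9 and 28.5 RPKM in RANKL and 25.1 and 27.5 in PBS at 72 h. Only at 48 h did the treated Mybl2 libraries stand clear of PBS in all 3 arms. Cdc20 was at 31.6 and 38.9 RPKM in RANKL and 33.2 and 38.0 in EV at 72 h and 38.4 and 38.5 in EV at 48 h. Cdc25b was at 21.8 and 23.9 RPKM in RANKL at 72 h, and at 24.5 and 22.4 in RANKL and 17.6 and 16.9 in PBS at 48 h. PBS replicate 2 of 48 h was the lowest Cdc25b library.

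**Figure D4:**
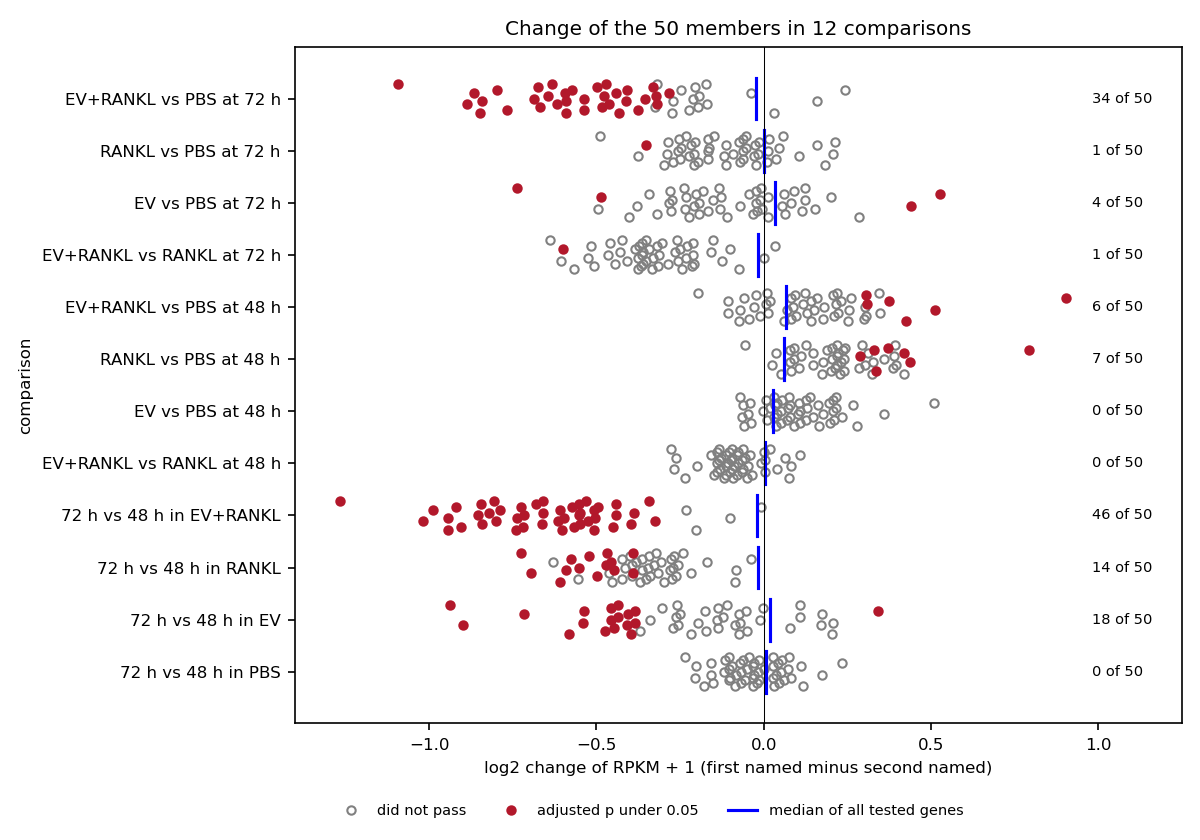
Log2 change of RPKM + 1 (horizontal axis, first named group minus second) of each of the 50 members in 12 comparisons (rows), filled red where the adjusted p was under 0.05; the blue line is the median of all tested genes and the figure at the right counts the members past the threshold. With EV+RANKL 46 members lie past the threshold between the times, and with PBS 0.

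At 72 h, EV+RANKL was set against PBS, a comparison added after results were known that shares its PBS libraries with those of RANKL and EV. Of the 50 members 34 fell and 0 rose, where 41.9% of all tested genes changed and 22.1% fell. The median change of the members was -0.44, against -0.02 for all tested genes, and 47 changes were below 0. Birc5 was at 17.9 and 20.0 RPKM with EV+RANKL and 33.4 and 38.5 with PBS (-0.89 ± 0.13, limma adjusted p = 0.000207). Tpx2 was at 38.8 and 46.4 RPKM with EV+RANKL and 86.4 and 97.3 with PBS, the largest fall at -1.09 ± 0.18. Anln (-0.84), the checkpoint kinase Ttk (-0.67), Cdca8 (-0.68), the condensin subunit Smc2 (-0.87), the kinetochore protein Nuf2 (-0.80) and the RHOA activator Ect2 (-0.63) followed. These 8 kept an adjusted p under 0.05 without any 1 library.

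By role, all 7 condensin and chromosome structure members, 5 of 6 kinase and passenger complex members, 5 of 6 centromere and kinetochore members, 5 of 7 kinesins, 3 of 4 checkpoint and 3 of 4 cytokinesis members fell. Of the cyclins, CDK1 and CDC25 phosphatases 3 of 6 fell, of the anaphase members 2 of 4, of the spindle proteins 1 of 4 and of the transcription factors 0 of 2. Mki67 was at 91.7 and 120 RPKM with EV+RANKL and 144 and 162 with PBS (-0.54 ± 0.14), and Top2a at 36.1 and 47.6 with EV+RANKL and 62.2 and 68.8 with PBS. Ccnb1, with 17.6 and 21.4 RPKM in EV+RANKL and 22.6 and 23.0 in PBS, did not pass. Cdc20 overlapped between the groups, with 29.9 and 37.0 RPKM in EV+RANKL and 31.6 and 33.4 in PBS. Foxm1 had 25.4 and 29.8 RPKM in EV+RANKL and 31.1 and 32.9 in PBS and did not pass. The highest change was that of Cdc25b, 0.24, which did not pass. Without PBS_72h replicate 1 the falling members numbered 31, without PBS_72h replicate 2 they were 21, without EV+RANKL_72h replicate 1 they were 16 and without EV+RANKL_72h replicate 2 they were 40. The 16 called in every such fit included Plk1, Ccna2, Ube2c and Mad2l1 beside the 8 named.

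Set against RANKL at 72 h, EV+RANKL had 1 member past the threshold, where 1.83% of all tested genes changed and 0.531% fell. Birc5 was at 17.9 and 20.0 RPKM with EV+RANKL and 32.8 and 26.1 with RANKL (-0.60 ± 0.13, limma adjusted p = 0.0362). The median change of the members was -0.34, 49 changes were below 0 and 34 members had an unadjusted p under 0.05, all lower. Of all 10365 tested genes 2185 had an unadjusted p under 0.05, 1175 of them lower. The largest change was that of Mad2l1, -0.64, with 22.4 and 31.2 RPKM in EV+RANKL and 48.4 and 36 in RANKL (adjusted p = 0.0722 in limma). The number of calls depended on the library: 15 without RANKL_72h replicate 2, 3 without EV+RANKL_72h replicate 2, and 0 without RANKL_72h replicate 1 or EV+RANKL_72h replicate 1. Birc5 passed only without RANKL_72h replicate 2 among these.

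RANKL alone at 72 h lowered 1 member, where 18.9% of all tested genes changed against PBS and 9.13% fell. Ttk was at 7.75 and 6.59 RPKM with RANKL and 9.10 and 9.71 with PBS (-0.35 ± 0.11, limma adjusted p = 0.0376). The members' median change was -0.11, with 39 of 50 below 0. Without RANKL_72h replicate 1 there were 3 calls, and without RANKL_72h replicate 2, PBS_72h replicate 1 or PBS_72h replicate 2 there were 0.

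EV alone at 72 h raised 2 members and lowered 2, where 18.3% of all tested genes changed against PBS (10.4% higher and 7.83% lower). Cenpa, the histone that marks centromeres, was at 13.1 and 12.9 RPKM with EV and 9.64 and 9.01 with PBS (0.44 ± 0.09, limma adjusted p = 0.0113). Cdc25b was at 30.3 and 27.1 RPKM with EV and 21.9 and 17.5 with PBS (0.53 ± 0.12). Tpx2 (-0.74 ± 0.18) and Plk1 (-0.49 ± 0.13) fell, Plk1 with 31.0 and 36.3 RPKM in EV and 44.9 and 50.1 in PBS. The EV libraries of 72 h differed from each other: Mybl2 was at 14.1 and 28.2 RPKM in replicates 1 and 2, and Mki67 at 112 and 142. Without EV_72h replicate 2 there were 15 calls, without EV_72h replicate 1 or PBS_72h replicate 2 there were 0, and without PBS_72h replicate 1 there were 4. Centring each library on its median gave 2 higher and 7 lower members, and over all genes 873 higher and 1342 lower in place of 1083 and 812. The 4 named calls kept their direction under that centring.

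At 48 h the members past the threshold were all higher. RANKL raised 7 members and lowered 0, where 14.8% of all tested genes changed against PBS and 6.47% rose. The members' median change was 0.22, against 0.06 for all tested genes, with 49 of 50 above 0. At an unadjusted p under 0.05, 21 members were higher, as were 1650 of 10365 tested genes. Mybl2 was at 46.7 and 49.2 RPKM with RANKL and 28.9 and 25.6 with PBS (0.79 ± 0.21, limma adjusted p = 0.0251). Cdc20 was at 46.2 and 47.0 RPKM with RANKL and 35.5 and 32.8 with PBS (0.44 ± 0.12). The kinetochore-binding protein Cenpf (0.37), Cdc25b (0.42), cyclin B2 (Ccnb2, 0.33), Cenpa (0.29) and Ube2c (0.34) also rose. Plk1 had 65.0 and 64.4 RPKM with RANKL and 53.3 and 52.6 with PBS, and Mki67 185 and 188 with RANKL and 153 and 165 with PBS. Neither passed. Without PBS_48h replicate 2 there was 1 call, Cenpf, and without PBS_48h replicate 1, RANKL_48h replicate 1 or RANKL_48h replicate 2 there were 0.

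EV+RANKL at 48 h, also added after results were known, raised 6 members (12%) against PBS and lowered 0. Of all tested genes 22.1% changed and 11.2% rose, so the share of members that rose was near that of all genes. An unadjusted p under 0.05 was reached by 12 members, all higher, and by 3534 of 10365 tested genes, 1993 of them higher. Mybl2 was at 51.2 and 52.3 RPKM with EV+RANKL and 28.9 and 25.6 with PBS (0.90 ± 0.21, limma adjusted p = 0.00907). Cdc20 (0.51), Ube2c (0.38), Cdc25b (0.42), Cenpa (0.31) and Cenpf (0.31) rose as well. The median over the members was 0.14, against 0.07 for all tested genes. This comparison shares its PBS libraries with the other comparisons against PBS at 48 h. The calls numbered 2 without PBS_48h replicate 1, 3 without EV+RANKL_48h replicate 2, and 0 without PBS_48h replicate 2 or EV+RANKL_48h replicate 1.

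EV alone at 48 h changed 0 members by limma's test, where 1.29% of all tested genes changed against PBS. An unadjusted p under 0.05 was reached by 5 members, all higher, and by 1159 of 10365 tested genes, 583 of them higher. The members' median change was 0.08, and the largest was that of Mybl2, with 39.6 and 38.6 RPKM in EV and 28.9 and 25.6 in PBS (0.51, adjusted p = 0.383 in limma). EV+RANKL against RANKL at 48 h also had 0 members called by limma's test, where 0.434% of all tested genes changed. An unadjusted p under 0.05 was reached by 1 member, which was lower, and by 834 of 10365 tested genes, 394 of them lower. The members' median there was -0.09, with 41 of 50 changes below 0 and none beyond -0.28 (Anln).

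Whether the effects differed between the times was tested directly, as the treatment difference at 72 h minus that at 48 h. For EV+RANKL against PBS, added after results were known, 24 members differed, all lower at 72 h, where 9.62% of all tested genes differed and 5.08% were lower. The median was -0.56 and all 50 were below 0. Ube2c gave -0.84 ± 0.15 (limma adjusted p = 0.0178), Tpx2 -1.23 ± 0.25, Plk1 -0.86 ± 0.18 and Birc5 -0.82 ± 0.18. Cenpf (-0.67), Cenpe (-0.74), Ttk (-0.69) and Kif2c (-0.80) differed as well. The count fell to 0 without PBS_48h replicate 2, EV+RANKL_48h replicate 2, PBS_72h replicate 2 or EV+RANKL_72h replicate 1. It was 1 without PBS_48h replicate 1, 8 without EV+RANKL_48h replicate 1, 11 without PBS_72h replicate 1 and 37 without EV+RANKL_72h replicate 2.

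For RANKL against PBS the difference between the times was past the threshold in 0 members by limma, where 0.0289% of all tested genes passed. An unadjusted p under 0.05 was reached by 19 members, all lower, and by 1202 of 10365 tested genes, 574 of them lower. The members' median was -0.34 and all 50 were below 0, with Tpx2 lowest at -0.69. For EV against PBS 0 members passed in limma, where 0.0193% of all tested genes passed, and the members' median was -0.19. An unadjusted p under 0.05 was reached by 5 members, all lower, and by 2012 of 10365 tested genes, 967 of them lower. Leaving out RANKL_72h replicate 1 gave 1 call for RANKL, and leaving out EV_72h replicate 2 gave 5 for EV.

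Other genes of the cell cycle were counted from lists chosen with earlier results of these data known. Of 36 further mitotic genes 35 fell between 48 h and 72 h with EV+RANKL (median -0.61), where 21.5% of all tested genes fell. With EV+RANKL against PBS at 72 h 27 fell (median -0.48), where 22.1% of all tested genes fell. Over time 14 of the 36 also fell with RANKL alone, where 2.58% of all tested genes fell. With EV alone 14 fell too, where 14.9% of all tested genes fell. The calls with RANKL alone were lost without RANKL_48h replicate 2, and those with EV alone without EV_72h replicate 1. Trip13, the ATPase that disassembles checkpoint complexes, was at a mean of 6.92 RPKM at 72 h with EV+RANKL and 21.5 at 48 h (-1.51 ± 0.19). Cep55, which brings the abscission machinery to the midbody, changed by -0.88 and the spindle assembly factor Dlgap5 by -0.90. Without EV+RANKL_72h replicate 1 the counts were 22 and 13, and without PBS_72h replicate 2 the second count was 18.

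Of 24 tested DNA replication and G1/S genes 16 fell over time with EV+RANKL (median -0.60), and 14 fell and 2 rose against PBS at 72 h. Of all tested genes 21.5% fell over time with EV+RANKL, and 22.1% fell and 19.9% rose against PBS at 72 h. The replicative helicase subunit Mcm5 was at a mean of 47.9 RPKM at 72 h with EV+RANKL and 101 at 48 h (-1.07 ± 0.19), and the ribonucleotide reductase subunit Rrm2 at 29.0 at 72 h and 60.8 at 48 h. Cyclin D1 (Ccnd1) was at 79.0 RPKM with EV+RANKL and 156 with PBS at 72 h (-0.97 ± 0.13). The counts over time were 4 without EV+RANKL_72h replicate 1 and 7 without EV+RANKL_48h replicate 2. Against PBS the falls were 3 without EV+RANKL_72h replicate 1, 6 without PBS_72h replicate 2 and 10 without PBS_72h replicate 1. The 2 rises there became 0 without PBS_72h replicate 1 or EV+RANKL_72h replicate 2, and 1 without PBS_72h replicate 2.

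Of 20 genes of MuvB, pocket proteins, E2F and NF-Y 12 fell and 1 rose over time with EV+RANKL. There 21.5% of all tested genes fell and 17.4% rose. Lin54, the MuvB subunit that contacts the CHR, was at 4.47 RPKM at 72 h and 8.0 at 48 h (-0.73 ± 0.11), and the repressor E2f8 at 11.6 at 72 h and 24.9 at 48 h (-1.05 ± 0.17). Against PBS at 72 h 9 of the 20 fell and 1 rose, where 22.1% of all tested genes fell and 19.9% rose. The falls over time were 5 without EV+RANKL_72h replicate 1 or EV+RANKL_48h replicate 2 and 8 without EV+RANKL_48h replicate 1, and the 1 rise was lost without EV+RANKL_48h replicate 2 or EV+RANKL_72h replicate 2. Against PBS the falls were 4 without EV+RANKL_72h replicate 1 or PBS_72h replicate 2.

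Among 15 genes of the anaphase-promoting complex and its adaptors 4 fell and 1 rose over time with EV+RANKL, and 4 fell against PBS at 72 h. These counts stand beside 21.5% and 22.1% of all tested genes falling. The complex's inhibitor Fbxo5 was at 12.1 RPKM at 72 h with EV+RANKL and 27.2 at 48 h (-1.11 ± 0.17), and its subunit Cdc27 at 14.7 at 72 h and 21.9 at 48 h (-0.55 ± 0.10). Over time 2 genes fell without EV+RANKL_72h replicate 1 or EV+RANKL_48h replicate 2, and the 1 rise did not pass without any 1 library. Against PBS 1 fell without EV+RANKL_72h replicate 1, and 2 without any other 1 library.

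Of 11 tested CDK inhibitors, p53 targets and brakes on mitotic entry 4 fell and 3 rose over time with EV+RANKL, and 3 fell and 2 rose against PBS at 72 h. Of all tested genes 21.5% fell and 17.4% rose over time with EV+RANKL, and 22.1% fell and 19.9% rose against PBS at 72 h. Against PBS the inhibitors moved in opposite directions. Cdkn1a, which encodes p21, was at 67.6 RPKM with EV+RANKL and 127 with PBS (-0.91 ± 0.14, limma adjusted p = 0.00026). Cdkn1b, which encodes p27, was at 16.2 RPKM with EV+RANKL and 8.79 with PBS (0.83 ± 0.15, adjusted p = 0.00112 in limma). The p53 target and inhibitor Mdm2 was at 17.1 RPKM with EV+RANKL and 32.7 with PBS (-0.90 ± 0.09). Over time the antiproliferative gene Btg2 was at 4.61 RPKM at 72 h and 1.16 at 48 h, and Wee1, which inhibits CDK1, at 7.5 at 72 h and 11 at 48 h. These calls of Cdkn1a, Cdkn1b, Mdm2 and Btg2 held without any 1 library, while that of Wee1 was lost without EV+RANKL_72h replicate 1. The whole list over time had 2 calls without EV+RANKL_72h replicate 1, 3 without EV+RANKL_48h replicate 2, and 5 without EV+RANKL_48h replicate 1.

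**Figure D5:**
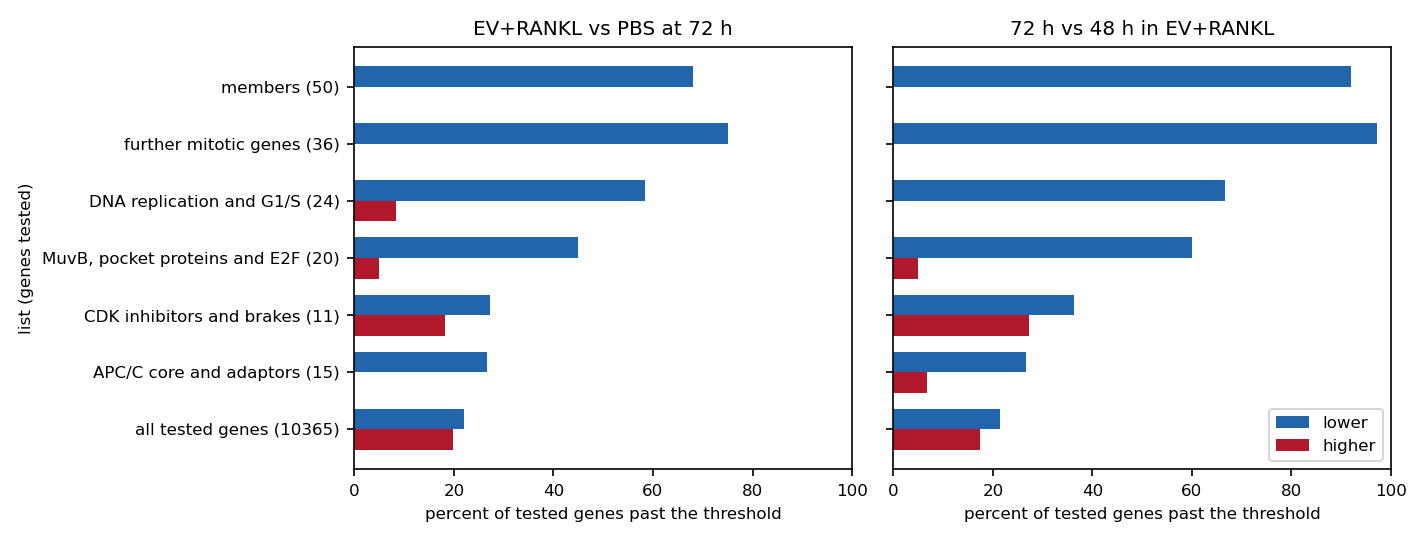
Percent of the tested genes of each list (horizontal axis) past the adjusted p threshold, lower in blue and higher in red, for EV+RANKL against PBS at 72 h (left) and 72 h against 48 h with EV+RANKL (right); the number of genes tested is given beside each list. Of the members 34 and 46 of 50 were lower, against 22.1% and 21.5% of all tested genes.

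The non-member genes whose log2 profile over the 16 libraries was most like the members' mean profile were Cep192 (Pearson's r = 0.975), Cep55 (0.974), Sgol1 (0.972), C330027C09Rik and Cdca5 (0.971 each), Tacc3 and Prim2 (0.970 each), Cdc45 (0.968), Gins4 (0.966) and Exosc8 (0.964). These are descriptions over libraries that share treatments and times. The median change over time with EV+RANKL was -0.61 in the 31 members with a CHR in the promoter window and -0.55 in the 11 without. Here only TTTGAA counts as a CHR, and some of the 11, such as Ccnb1, held the variant TTTAAA. With RANKL against PBS at 48 h the medians were 0.23 with a CHR and 0.29 without.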

How the data were processed

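TruSeq mRNA libraries were sequenced from 16 samples, 2 for each of 8 groups, per the labels' protocols. The submitters' processing notes list FastQC, HISAT2 and Partek. They also list the human builds GRCh38 and hg38, yet the table's names are mouse symbols; no source used here gives the mouse build or the way of counting. The deposited values have no stated unit and were read as log2(RPKM + 1): with base 2, 82.7% of 10755 low values of single-exon genes lay within 0.05 of a whole number of reads, against 61.7% with base e and 25.7% with base 10. GENCODE M21 holds 92.9% of the names, and 24 look like dates. The column of 1 EV+RANKL library of 48 h is not marked for RANKL; it was put in that group by its plus sign and is called replicate 2.

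limma 3.58.1 (R 4.3.3), with a trend of the variance, fitted 8 group means to all libraries over 10365 genes that reached 1 RPKM in 2 or more libraries. The log2 scale with 1 added understates changes of low genes. Errors are standard errors; p-values were Benjamini-Hochberg adjusted over all tested genes of a comparison, at a threshold of 0.05. The fit was tested on simulated data. The members and lists were chosen with earlier results of these data known, and the 3 comparisons of EV+RANKL with PBS were added afterwards. The text names 13 members in every library, up to 8 members per comparison by smallest adjusted p, and those with the largest rise and fall. Up to 4 genes of each other list are named, also by smallest adjusted p, for EV+RANKL over time or against PBS at 72 h. In all, 4 list genes were matched by an older name. Of 15 CDK inhibitors and brakes 13 were in the table and 11 tested. Libraries of a group correlated at Pearson's r of 0.984 to 0.996. Alternatives were an added constant of 0.1, no filter, no trend, only the groups compared, median centring, a replicate block, and leaving out each library.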

Additional observations from a re-analysis of the deposited data

Results flagged for a closer look

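The difference between EV+RANKL and PBS was not the same at 72 h and 48 h: the interaction term of limma was past the threshold in 24 of the 50 mitosis and G2/M genes, all lower at 72 h, where 9.62% of all tested genes passed. The count was 0 without PBS_48h replicate 2, EV+RANKL_48h replicate 2, PBS_72h replicate 2 or EV+RANKL_72h replicate 1, and 37 without EV+RANKL_72h replicate 2.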

How the results depend on the processing

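Counts are of members past the threshold, out of 50. With only the groups compared in the fit, the count was 2 for EV against PBS at 48 h (0 in the fit of all groups), 23 for RANKL (7) and 19 for EV+RANKL (6) against PBS at 48 h, 0 for EV (4), for RANKL (1) and for EV+RANKL against RANKL (1) at 72 h, and for 72 h against 48 h 2 with EV (18) and 0 with RANKL (14). With no filter on low values, which adds genes to the adjustment, it was 3 for RANKL against PBS at 48 h, 2 for EV against PBS at 72 h, 0 for RANKL against PBS and for EV+RANKL against RANKL at 72 h, 11 with EV and 3 with RANKL over time, and 6 for EV+RANKL against PBS, 72 h minus 48 h (24). Median centring gave 9 for EV and 2 for RANKL against PBS at 72 h, 5 for EV+RANKL against RANKL at 72 h, and 24 with RANKL over time. Apart from the filter, the cause was not tested. The labels give samples of the same replicate number nothing in common but the number. Over 28 pairs of groups their deviations correlated at -0.115 to 0.529, with 17 pairs over 0.1. Whether they shared a source was not tested. The replicate block gave 12 for RANKL against PBS at 48 h, 2 for RANKL against PBS and 6 for EV+RANKL against RANKL at 72 h, and 28 with RANKL over time; every other count stayed within 1.5 times.

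Without 1 library, the count was 0 to 1 for RANKL and 0 to 3 for EV+RANKL against PBS at 48 h; 0 to 15 for EV, 0 to 3 for RANKL and 16 to 40 for EV+RANKL against PBS at 72 h; and 0 to 15 for EV+RANKL against RANKL at 72 h. Over time it was 3 to 26 with EV, 0 to 21 with RANKL and 27 to 46 with EV+RANKL. For 72 h minus 48 h it was 0 to 1 for RANKL, 0 to 5 for EV and 0 to 37 for EV+RANKL. Of 676 recomputed changes of named members, 475 stayed on the same side of the threshold, 201 no longer passed and 0 changed direction; 156 of the losses came from leaving out 1 library. With 2 libraries a group, 1 arm is then a lone sample, assumed to vary like the other groups.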
